A study of Mus musculus with 2 samples.

Results

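The keratin genes are the protein-coding genes of the mouse annotation whose symbol is Krt and a number, in some cases followed by a letter (as in Krt6a). There were 53 of them among 21938 protein-coding genes, 27 in the type I cluster on chromosome 11 and 26 in the type II cluster on chromosome 15. An EP300 peak was assigned to a keratin gene when the start of one of its protein-coding transcripts was the nearest such start to the peak summit, within 100 kb. By that rule 43 of the 43988 peaks of the optimal set (43972 of them on the 21 chromosomes) belonged to 17 keratin genes. The distance limit was not reached, since the farthest assigned summit lay 33.3 kb from the nearest start of its gene.

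Keratins are the intermediate filament proteins of epithelial cells, and a filament forms only when a type I protein pairs with a type II protein. Krt8 (type II) and Krt18 (type I) form the basic pair of simple, single-layered epithelia such as those lining the air spaces, where Krt7 and Krt19 are also found. Stratified epithelia, skin and hair use other pairs, for example Krt5 with Krt14 in basal cells and Krt1 with Krt10 in the layers above them. EP300 acetylates histones and other proteins on lysine, and transcription factors bound to DNA recruit it as a coactivator to promoters and enhancers.

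EP300 was mapped by chromatin immunoprecipitation with sequencing in lung tissue of newborn mice (strain B6NCrl, age postnatal day 0). The labels name no mutation or treatment. The 2 libraries form 1 group, numbered as biological replicates 1 and 2 but filed under the same donor and the same tissue sample, and their spread may therefore reflect technical error alone. There was no other condition to compare, no test was made, and the SD over 2 libraries or over genes is given as a description. The peak lists carry no read counts, so the depth of the libraries is unknown, and an absent peak cannot be told apart from one too weak to be listed. Lung is a mixture of cell types, in which few cells with a strong peak and many cells with a weak one cannot be told apart. For the tissue label, 7 lung epithelial genes were read (Nkx2-1, Sftpa1, Sftpb, Sftpc, Ager, Hopx and Scgb1a1). All 7 had a peak within 1 kb of a start, against 21.5% of all protein-coding genes. The 7 genes were chosen with earlier results of these data known, so they are no independent check of the label.

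All 4 simple-epithelium keratins had EP300 peaks, whereas most skin and hair keratins had none. Krt7, Krt8, Krt18 and Krt19 together had 13 peaks, or 3.25 ± 2.06 per gene (SD over 4 genes). The 37 skin and hair keratins together had 11 peaks, or 0.297 ± 0.618 per gene (SD over 37 genes), and 8 of them (21.6%) had at least 1. Of the 12 remaining keratins, those of other stratified, gut and corneal epithelia and those without a settled class, 5 had a peak, with 19 peaks in all. Krt80 alone had 13 of these 19. Over the whole family 17 of 53 genes (32.1%) had a peak, below the 46.7% of all protein-coding genes. Keratin genes stand close together, however, and the sequence nearest to a keratin start had a median length of 23.5 kb against 46.2 kb for all genes.

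Counted per megabase (Mb) of the sequence nearest to their starts, the simple-epithelium keratins had 96.1 peaks, the skin and hair keratins 14.7 and all protein-coding genes 22.9. Each library alone gave the same order. Among the strongest 43988 peaks of each library, the simple-epithelium keratins had 13 in replicate 1 and 12 in replicate 2, or 92.4 ± 5.23 per Mb (SD, n = 2). The skin and hair keratins had 9 in each, or 11.99 per Mb in both.

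**Figure D1:**
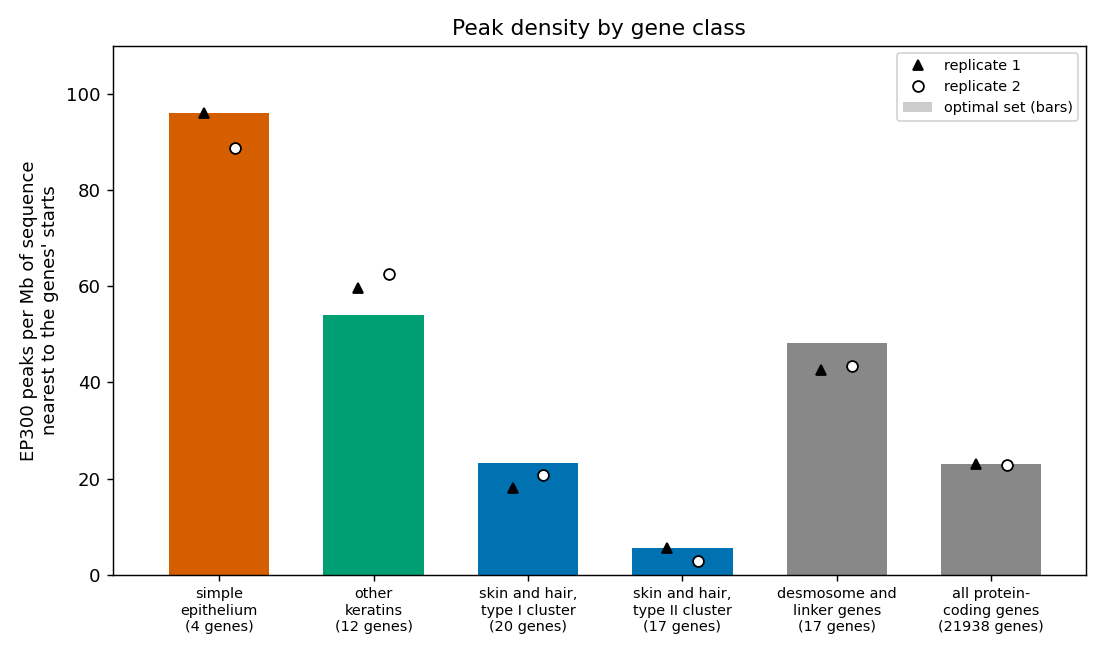
Peaks per Mb of the sequence nearest to the genes' starts (vertical axis), by gene class (horizontal axis). Bars show the optimal set, triangles and circles the strongest peaks of replicates 1 and 2. The simple-epithelium keratins stand at 96.1 and the skin and hair keratins of the type II cluster at 5.51.

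The DNA under the strongest peak of each simple-epithelium keratin, and of Krt80, which had the strongest peak outside these 4 genes, is printed here to show the sequence at the leading EP300 site of each of these genes. Each is the forward strand of mm10 (RefSeq sequence of GRCm38.p6), the whole narrow peak for Krt7 and 100 bases on either side of the summit for the others. Capitals mark matches to the words ACATTCC (recognised by TEAD factors) and CACTNNAG (by NKX2 factors), searched on both strands.
Krt7: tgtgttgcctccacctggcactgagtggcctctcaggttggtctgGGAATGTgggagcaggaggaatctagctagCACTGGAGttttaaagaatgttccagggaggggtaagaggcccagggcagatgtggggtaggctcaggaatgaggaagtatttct
Krt19: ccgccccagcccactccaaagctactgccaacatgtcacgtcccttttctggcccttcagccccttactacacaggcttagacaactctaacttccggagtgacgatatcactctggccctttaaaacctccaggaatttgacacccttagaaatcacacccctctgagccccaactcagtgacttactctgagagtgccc
Krt8: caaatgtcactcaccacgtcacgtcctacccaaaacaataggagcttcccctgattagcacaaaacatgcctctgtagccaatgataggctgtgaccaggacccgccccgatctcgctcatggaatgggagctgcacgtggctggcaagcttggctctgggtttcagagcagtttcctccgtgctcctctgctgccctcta
Krt18: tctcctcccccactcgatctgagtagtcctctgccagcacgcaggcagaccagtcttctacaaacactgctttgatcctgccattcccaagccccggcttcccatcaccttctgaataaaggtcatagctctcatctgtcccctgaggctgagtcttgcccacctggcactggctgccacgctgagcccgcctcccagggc
Krt80: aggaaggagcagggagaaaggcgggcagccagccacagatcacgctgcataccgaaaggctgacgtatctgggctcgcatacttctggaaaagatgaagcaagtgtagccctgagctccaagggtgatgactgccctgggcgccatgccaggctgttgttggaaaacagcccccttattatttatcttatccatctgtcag
In the Krt7 window the TEAD word lies on the reverse strand at bases 46 to 52 and the NKX2 word at bases 76 to 83, beginning 2 bp after the summit. None of the 12 words and word pairs searched was present in the other 4 windows.

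Krt7, a type II keratin of ducts, airways and mesothelium, had the strongest keratin peak. The peak lay at chr15:101410882-101411041, 148 bp upstream of the nearest protein-coding transcript start. Its signal value, the authors' own measure of peak strength, was 229, rank 701 of the optimal set. It was 140 in replicate 1 (rank 511) and 89.96 in replicate 2 (rank 1063), so it was among the strongest of both libraries. At 160 bp it was also the only keratin peak not 424 bp wide, the median width of all optimal peaks. No second optimal peak was assigned to Krt7, although the conservative set listed 2 and the strongest peaks of the libraries held 3 and 2.

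Krt19, the smallest keratin, which lacks most of the tail domain, had 3 peaks. The strongest, at chr11:100146012-100146435, had its summit 104 bp upstream of a start inside the gene and a signal value of 122 (rank 4266). It was 82.0 in replicate 1 (rank 2823) and 38.1 in replicate 2 (rank 8647), a larger gap between the libraries than the median of all peaks. The other Krt19 peaks were weaker, 37.6 at 3.78 kb and 30.9 at 23.0 kb upstream.

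Krt8 and Krt18 are neighbours at the end of the type II cluster, read away from each other, and Krt18 is the only type I gene there. Krt8 had 6 peaks. The strongest, at chr15:101984208-101984631, lay 20.1 kb downstream of the Krt8 start with a signal value of 120 (rank 4394), at 69.0 in replicate 1 (rank 4375) and 54.8 in replicate 2 (rank 3992). The Krt8 promoter peak, 169 bp inside the gene, was weaker in the optimal set at 39.2, with 20.5 and 20.6 in the libraries. The strongest EP300 site assigned to Krt8 was thus away from its start, unlike those of Krt7 and Krt19. When noncoding genes were also allowed to take peaks, 5 of the 6 Krt8 peaks were nearer to the lincRNA gene Gm36026. These included the strongest and the promoter peak. Each was nearer by a small margin (19.8 kb against 20.1 kb for the strongest, 101 bp against 169 bp for the promoter peak).

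Krt18 had 3 peaks and none within 1 kb of its start. The strongest, at chr15:102016799-102017222, had a signal value of 43.0, with 17.4 in replicate 1 and 24.4 in replicate 2. The other Krt18 peaks were 40.7, which replicate 2 did not list within 100 bp, and 18.9, which replicate 1 did not list. The 3 peaks lay 10.1 to 11.2 kb upstream of Krt18, and a Krt8 peak of 56.2 lay 11.8 kb upstream of Krt8. All 4 therefore stood together near the middle of the 23.7 kb between the gene starts, and nearness assigned them to one gene or the other by a small margin. The remaining Krt8 peaks had signal values of 33.7, 27.2 and 19.9. The one of 27.2 had no summit within 100 bp in either library's list.

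Krt80, a type II keratin found in many epithelia, had the most peaks of any keratin, 13. They reached from 33.3 kb downstream to 18.2 kb upstream, each distance taken from the nearest of its annotated starts. Only 1.98% of protein-coding genes had as many. Its strongest peak, at chr15:101370318-101370741, lay 368 bp upstream of a start with a signal value of 173 (rank 1678), and was 90.4 in replicate 1 and 86.5 in replicate 2. The others ranged from 11.95 to 114, and 3 of them overlapped in a chain just upstream of the promoter. The libraries alone gave Krt80 15 and 10 peaks, so the count varied between them but stayed the highest of the family in both. When noncoding genes were also allowed to take peaks, 10 of the 13 were nearer to Gm35853, annotated as antisense RNA, and 1 to Mir1941. Peaks were assigned by nearness, and a link to Krt80 was not measured.

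Among the other keratins outside skin and hair, Krt23, a type I keratin of glandular and gut epithelium, had 2 strong peaks 1.40 kb apart. The stronger, at chr11:99473374-99473797, lay 19.6 kb downstream of the Krt23 start, past the end of the gene, with a signal value of 139 (86.4 in replicate 1 and 52.9 in replicate 2). The second was 129 (70.4 and 58.3). Replicate 2 alone placed 6 of its strongest peaks at Krt23, against 2 in replicate 1. Krt88 had 1 peak of 93.5 (65.4 and 29.9) at chr15:101454691-101455114, 7.16 kb downstream of its start.

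Krt13, the type I keratin of the upper layers of mucosal stratified epithelium, had 1 peak in its intron, at chr11:100120190-100120613, with a signal value of 67.9 (40.9 and 22.1), and 1 of 53.5 downstream that was nearer to the lincRNA gene Gm12347. Krt20, a gut and urothelial keratin, had 1 peak of 35.5 at chr11:99464976-99465399, in intergenic sequence 27.0 kb upstream. It was 9.05 in replicate 1 and 23.1 in replicate 2, the keratin peak most tilted to replicate 2. Krt4 (the partner of Krt13), Krt12, Krt24, Krt76, Krt78, Krt90 and Krt222 had none in the optimal set. For Krt12, however, the conservative set listed 1 peak, and 1 was among the strongest peaks of replicate 1.

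**Figure D2:**
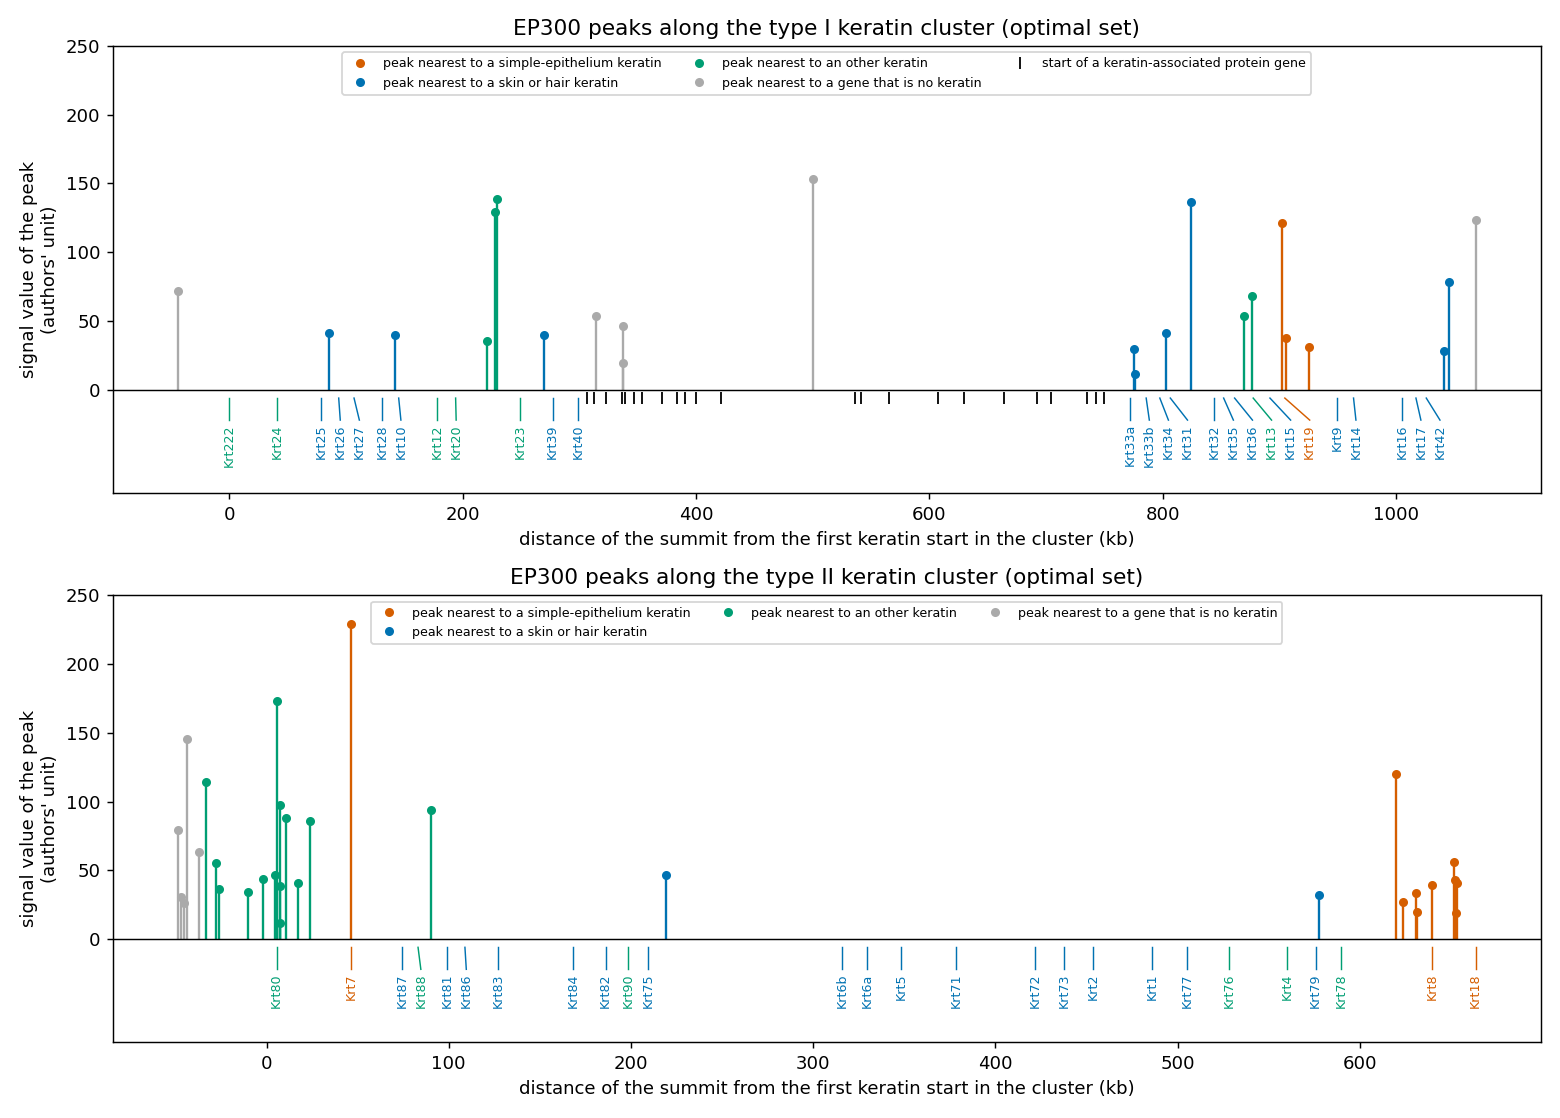
EP300 peaks of the optimal set along both keratin clusters, at the distance of their summit from the first keratin start of the cluster in kb (horizontal axis) and with the authors' signal value as height (vertical axis). Colours give the class of the nearest gene, names below mark the keratin genes and black ticks the keratin-associated protein genes. Tall peaks stand at both ends of the type II cluster, and a 358 kb stretch of it holds none.

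The skin keratins had few peaks and only 1 near a start. None of the 3 basal epidermal keratins (Krt5, Krt14, Krt15) had a peak in the optimal set or among the strongest peaks of either library, although Krt5 and Krt14 are also the keratins of airway basal cells. Of the 6 suprabasal keratins, Krt10 and Krt79 had 1 peak each, and Krt1, Krt2, Krt9 and Krt77 had none. The Krt10 peak, at chr11:99385646-99386069, was 39.99 (22.6 and 19.2) and lay 239 bp from an annotated transcript start. That start is inside the gene, and the peak lay nearer to the 3' end of Krt10 than to its 5' end. The Krt79 peak, at chr15:101941879-101942302, was 31.9 and was listed by replicate 1 (25.6) but not replicate 2.

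Of the 5 stress and nail keratins, which rise in wounded or fast-growing skin, Krt42 had 2 peaks and Krt6a, Krt6b, Krt16 and Krt17 had none. Krt6a and Krt6b are near-identical copies, and the treatment of reads that match both was not stated in the notes. The stronger Krt42 peak, at chr11:100288901-100289324, was 78.1 (41.8 and 32.6) and lay 19.2 kb upstream, beyond the edge of the cluster. The second, 15.4 kb upstream, was 28.5. Both were nearer to the antisense gene Gm14206 than to Krt42.

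Of the 8 keratins of the inner root sheath and companion layer of the hair follicle, Krt25 and Krt75 had 1 peak each, and Krt26, Krt27, Krt28, Krt71, Krt72 and Krt73 had none. The Krt75 peak, at chr15:101583536-101583959, was 46.4 (24.7 and 22.0) and nearer to the pseudogene Gm5476. The Krt25 peak, at chr11:99329632-99330055, was 41.4 (24.5 and 17.6) and lay in an intron of its neighbour Krt26.

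Of the 15 hair keratins, which build the hair shaft, 3 had a peak: Krt31, Krt33a and Krt39. Krt31 had the strongest peak of any skin or hair keratin, 137 at chr11:100067631-100068054, 17.3 kb upstream of the gene. It was 80.8 in replicate 1 (rank 2931) and 58.6 in replicate 2 (rank 3409), so both libraries ranked this site above the strongest Krt8 site. It lay nearer, at 15.6 kb, to the antisense gene Gm11571. The second Krt31 peak was 41.3. Krt39 had 1 peak of 39.9 in its own intron at chr11:99514065-99514488, at 11.3 in replicate 1 and 25.9 in replicate 2. The Krt33a peaks, 29.9 at chr11:100019476-100019899 and 11.5, overlapped and were 17.8 and 12.1 in the libraries for the stronger. Krt32, Krt33b, Krt34, Krt35, Krt36, Krt40, Krt81, Krt82, Krt83, Krt84, Krt86 and Krt87 had none.

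**Figure D3:**
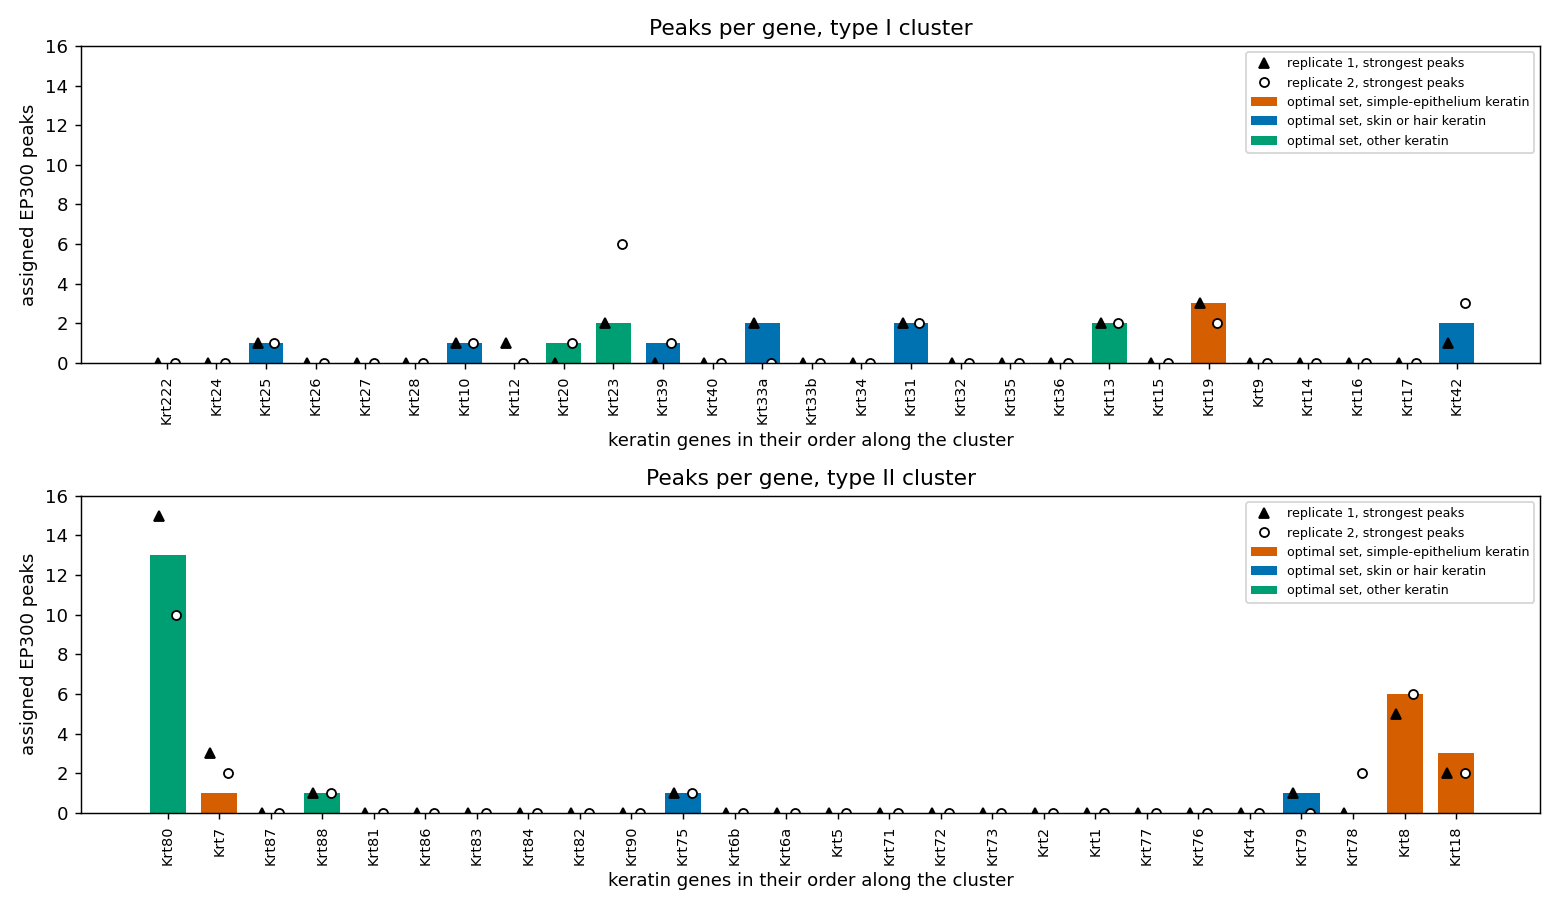
Number of assigned EP300 peaks (vertical axis) for each of the 53 keratin genes in their order along the clusters (horizontal axis). Bars show the optimal set coloured by class, and triangles and circles the peaks among the strongest 43988 of replicates 1 and 2. Krt80 stands highest with 13, followed by Krt8 with 6, and most skin and hair keratins are at 0.

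Promoter peaks, with a summit within 1 kb of a start, were found at 5 keratin genes: Krt7, Krt8, Krt19, Krt80 and Krt10. This is 9.43% of the 53 genes, against 21.5% of all protein-coding genes. The Krt10 and Krt19 peaks lay at starts inside the gene, away from its 5' end. With 1 start per gene there were 3 promoter genes. Of the 43 keratin peaks 5 lay in promoters, 6 in introns and 32 between genes, and 24 lay upstream and 19 downstream of the start they were assigned to. The median signal value of the keratin peaks was 41.4, against 48.5 for all optimal peaks, and 7 of 43 (16.3%) were among the strongest 4398 peaks, the top 10% of the set. Of the 13 simple-epithelium peaks 3 were among these, and of the 11 skin and hair peaks 1, the distal Krt31 site. The class medians did not follow that order, at 39.2 for simple-epithelium and 39.99 for skin and hair keratins, and the median of the other keratins was higher than both.

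The 2 clusters differed in where their peaks stood. The type II genes had 26 peaks at 7 of 26 genes and the type I genes 17 at 10 of 27. Per Mb of the nearest sequence this came to 40.7 for type II (43.8 and 37.6 in the libraries) and 28.4 for type I (25.03 and 31.7), higher for type II in both libraries. The order rested on Krt80, without which the type II genes had 13 peaks, or 22.5 per Mb, and with noncoding genes also taking peaks it turned to 9 at type II and 13 at type I genes. By protein type, with Krt18 counted as type I, the 28 type I genes had 20 peaks and the 25 type II genes 23.

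Within the skin and hair class the clusters stood the other way. In the type I cluster 6 of 20 skin and hair keratins had a peak, 9 peaks in all or 23.2 per Mb (18.1 and 20.6 in the libraries), a density near that of all genes. In the type II cluster 2 of 17 had one, 2 peaks in all or 5.51 per Mb (5.51 and 2.76). These are counts of few peaks, and the difference was not tested.

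Along the DNA, from the first to the last keratin start, the type II cluster held 21 peaks in 664 kb, all nearest to keratin genes, or 31.6 per Mb. Chromosome 15 as a whole had 18.1 per Mb. The type I cluster held 19 peaks in 1026 kb, or 18.5 per Mb, of which 15 were nearest to keratin genes, and chromosome 11 had 23.9. Apart from the Krt88 and Krt75 peaks, the type II peaks stood towards the ends. Between the Krt75 peak and the Krt79 peak lay 358 kb with no optimal peak. This stretch held the starts of 12 keratin genes: Krt6b, Krt6a, Krt5, Krt71, Krt72, Krt73, Krt2, Krt1, Krt77, Krt76, Krt4 and Krt79. Neither library had one of its strongest 43988 peaks in it. Of all gaps between neighbouring optimal summits 2.53% were as long. This share counts gaps and not bases. Long gaps take up a larger share of the sequence than of the number of gaps, so such a stretch is less unusual by length.

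The 2 longest gaps of the type I cluster, 276 kb and 162 kb, lay over keratin-associated protein genes, which encode the matrix around hair keratin filaments. They held the starts of 11 and 8 of these genes and of a single keratin, Krt33a. Of all gaps 3.59% and 6.88% were as long. Replicate 1 had 1 of its strongest peaks in the 276 kb gap and replicate 2 none, and neither had one in the 162 kb gap. Of the 23 keratin-associated protein genes in the cluster 1, Krtap1-5, had an assigned optimal peak (4.35%, against 46.7% of all protein-coding genes). These genes stand closer still than the keratins, with a median of 7.47 kb of nearest sequence against 46.2 kb for all genes, and had 8.87 peaks per Mb against 22.9.

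The longer list of 300000 peaks called on both libraries pooled, which contains many weak peaks, assigned 177 peaks to keratin genes. In it 34 of 53 keratin genes had at least 1, against 83.8% of all protein-coding genes. All 4 simple-epithelium keratins had one (51 peaks in all), as did 10 of the 12 other keratins and 20 of the 37 skin and hair keratins (54 peaks). The class order was thus kept in the longer list. The 358 kb stretch held 7 pooled peaks, of which the best had rank 136276. The 276 kb gap of the type I cluster held 17, of which the best had rank 44843. Krt78, with no optimal peak, had 12 pooled peaks, and 2 of them were among the strongest of replicate 2.

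The libraries listed most of the keratin peaks. Of the 43, 40 had a summit within 100 bp in the full list of replicate 1, 38 in that of replicate 2 and 36 in both. Of all optimal peaks 85.9% were in both full lists. Among only the strongest peaks of each library, 28 of the 43 keratin peaks were in both and 5 in neither. By class, 7 of 13 simple-epithelium, 6 of 11 skin and hair and 15 of 19 other peaks were then in both, and 3, 1 and 1 in neither. The share of all optimal peaks among the strongest peaks of both libraries was not computed. Whether these counts are low or ordinary is therefore not known. For peaks in both full lists, the median log2 ratio of the signal value in replicate 1 to that in replicate 2 was 0.43 for keratin peaks, close to the 0.40 of all optimal peaks. It was 0.64 for simple-epithelium, 0.23 for skin and hair and 0.45 for other keratins. Single peaks ranged from a log2 ratio of -1.35, at Krt20, to 1.43, at the weakest Krt19 peak.

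**Figure D4:**
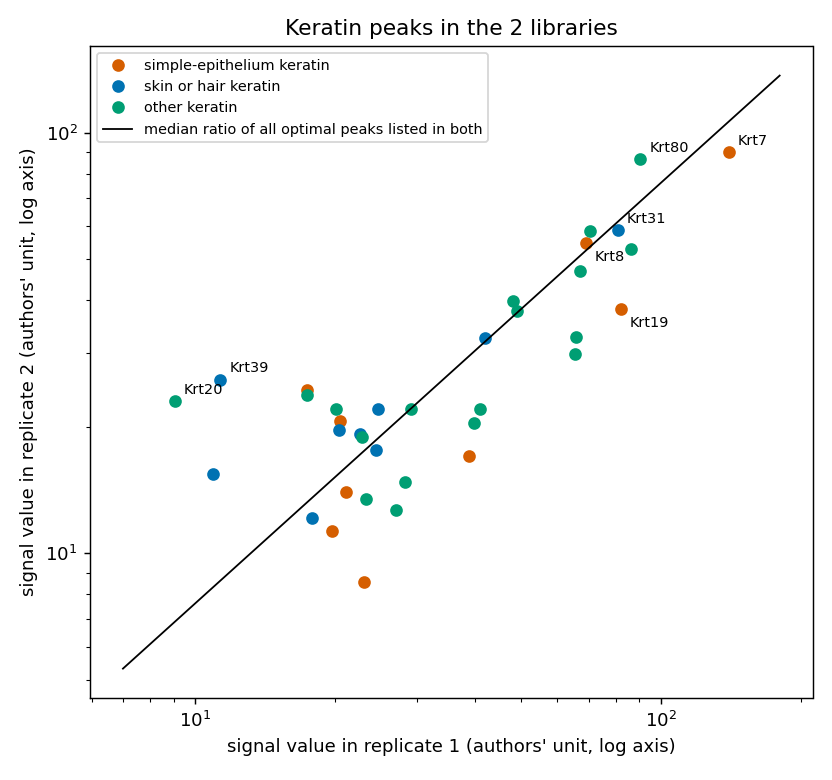
Signal value of the 36 keratin peaks listed in both libraries, replicate 1 (horizontal log axis) against replicate 2 (vertical log axis), coloured by class. The line marks the median ratio of all optimal peaks, and names mark the strongest such peak of a gene. Krt7 and Krt80 lie highest in both libraries, and Krt20 and Krt39 lie on the replicate 2 side.

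Of the 12 sequence words and word pairs searched on both strands within 100 bp of the summits, the AP-1 word differed most in share between keratin peaks and all peaks. TGANTCA, the site of the FOS and JUN dimers that form AP-1, was present in 12 of 43 keratin peaks (27.9%), against 13.3% of all optimal peaks. By class these were 3 of 13 simple-epithelium peaks, 2 of 11 skin and hair peaks and 7 of 19 others, 4 of the last at Krt80. The 12 peaks held 15 such words, 5 of them centred within 25 bp of the summit. To show the bases around them, the word nearest to a summit is printed for each of the 8 genes concerned, with 11 bases on either side. The stretches are on the forward strand with the word in capitals, and the words are alike because the search selected them.
Krt20: aatccagtttcTGACTCAcctcccgacct
Krt23: gctttaccaaaTGAGTCAccctcccagcc
Krt31: gtagaggtgcaTGAGTCActagacaaaga
Krt13: tgacacagatgTGAGTCAggcaccactgg
Krt80: tggatgagatgTGAGTCActtgtggctag
Krt79: aggcagtgctgTGAGTCActgtgtggctg
Krt8: agagctcaggcTGAGTCAgaacccagggc
Krt18: ccaaaatgcaaTGATTCAccctcctctgg
As read on the forward strand, the form TGAGTCA accounted for 10 of the 15 words. Its reverse complement, which is the same site read on the other strand, accounted for 3 more. The Krt31 word belongs to its strongest peak, and the Krt8 word to the peak of 56.2 between Krt8 and Krt18.

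The shares of the other words lay closer to those of all peaks. CAGGAAG (ETS) was in 18.6% against 16.9%, TTGCNNAA (CEBP) in 18.6% against 14.8% and CACTNNAG (NKX2) in 16.3% against 15.6%. GGGNGTGG (KLF) was in 11.6% against 9.01%, ACATTCC (TEAD) in 9.30% against 8.87% and AGAACA (the single glucocorticoid receptor word) in 16.3% against 21.9%. TGTTTAC (FOX) was in no keratin peak, against 8.46% of all. AACCNGGTT (GRHL) and the paired words of the glucocorticoid receptor (AGAACA and TGTTCT), the p53 family (CATG and CATG) and NFI (TTGGC and GCCAA) were in none, and each in under 1% of all peaks. The paired words contain the single word in the glucocorticoid case, so these 2 searches overlap. The median GC content of the keratin windows was 52.7%, against 46.8% for all peaks, and its part in these shares was not tested.

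Genes whose products anchor or accompany keratin filaments are given beside all protein-coding genes, of which 46.7% had a peak, at 22.9 per Mb. Of 17 genes of the desmosome plaque and of keratin linkers, 13 (76.5%) had a peak, with 71 peaks in all or 48.1 per Mb. That density lay above the 34.7 of the whole keratin family but below the 96.1 of the simple-epithelium keratins and the 53.9 of the other keratins outside skin and hair. The last value rested largely on Krt80, which had 13 of the 19 peaks of those other keratins. Itga6, a hemidesmosome integrin, had 14, Jup, the desmosome plaque protein plakoglobin, 13, and Plec, the linker plectin, 9. Pkp1, Pkp3, Fam83h and Fam83g had none. Of 12 other intermediate filament genes 4 (33.3%) had a peak, at 25.9 per Mb, Lmna and Synm 6 each, Vim 4 and Nes 3. Of 8 genes of squamous and skin epithelium 3 (37.5%) had a peak, at 14.9 per Mb and none in a promoter: Trp63, the regulator of basal epithelial cells, had 4, Sfn 3 and Ivl 1, while Lor, Flg, Sprr1b, Krtdap and Sbsn had none. The mesothelium, the cell layer of the lung surface, also expresses Krt7, Krt8, Krt18 and Krt19. Of 4 mesothelial genes 2 had a peak, at 23.9 per Mb, Msln 3 and Upk3b 1, and Wt1 and Lrrn4 had none.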

How the data were processed

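EP300 peaks of 2 lung libraries were used. The deposited notes state mm10 as the build of the alignments, peak calls for each library and for their pool, and conservative and optimal sets selected from these calls by irreproducible discovery rate (IDR). Each list also drew on 1 further file the notes do not describe. Which aligner, peak caller and IDR version produced them is not given in the sources used here. Each peak's signal, as deposited by the authors, has no stated scaling. It was used for ranks and description, and for the ratio between libraries.

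Starts were those of protein-coding transcripts in GENCODE M21 on GRCm38.p6. Libraries alone were represented by their strongest 43988 peaks. Peaks matched between lists when summits lay within 100 bp, and the full list of each library was searched unless its strongest peaks are named. The members, classes, lists and words were chosen with earlier results of these data known. Every keratin gene with an assigned optimal peak was named with its strongest peak, genes without one were named by class, and the 3 genes with most peaks were named from partner lists. The other partner genes were named in addition, after their values were seen. Assignment and the word search were tested on simulated data, and the matching of peaks between lists was not. Alternatives were other peak sets, distances, gene definitions and promoter widths, and each library alone. Python 3.11.15, numpy 2.4.6, pandas 2.3.3 and matplotlib 3.10.9 were used.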

Additional observations from a re-analysis of the deposited data

How the results depend on the processing

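Of 73 alternative values for 9 results, 49 stayed within 1.5-fold, among them every value from a single library. With the stronger 50% of the optimal peaks there were 17 keratin peaks at 9 genes, 1.0 per simple-epithelium and 0.0541 per skin and hair keratin gene, 7 at type I and 10 at type II genes, 7.80 and 12.1 per Mb in the spans, and 3 promoter genes. With 1 start per gene there were 3 promoter genes. Within 10 kb there were 24 peaks, 1.5 per simple-epithelium gene, 10 at type I and 14 at type II genes. With the nearest start of any gene, noncoding ones included, there were 22 peaks, 2.0 per simple-epithelium and 0.189 per skin and hair gene, and 9 at type II genes, fewer than at type I genes. With each peak given to every keratin gene within 100 kb there were 66 peaks at 47 genes, 14.25 and 4.49 per gene and 42 at type II genes. Leaving out Krt80, chosen after seeing the data, left 13 at type II genes. Merging overlapping peaks and omitting those ranked low in the pooled list were also added then. Peaks per gene were higher at simple-epithelium than at skin and hair keratins under each of the 10 alternatives run for both, by 3.18-fold to 18.5-fold against 10.9-fold in the report. Depth is unknown, so the weakest detectable peak cannot be stated.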
